A study of Mus musculus with 1615 samples.

Results

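The cells described here are the vascular smooth muscle cells of mouse colon, the muscle cells wrapped around the arteries and veins of the gut wall. They were chosen by the counts of 7 genes. A cell was kept when Notch3 reached 200 CPM (counts scaled to the same total in every cell), Pdgfra and Cdh5 both stayed below 200 CPM, and the sum of P2rx1 and Sorbs2 exceeded the sum of Abcc9 and Gpx3. The rule kept 10, 14 and 89 cells of 3 mice, together 7.00% of the 1615 cells of the series. All of them came from 1 reporter line.

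Vascular smooth muscle sets the width of a vessel. Calcium that enters through membrane channels or leaves internal stores starts the cross-bridge cycle of actin and myosin, and potassium channels pull the membrane back towards rest. Signals from sympathetic nerves, hormones and the endothelium act on receptors at the cell surface, and NOTCH3, a receptor that mural cells present to the endothelium, keeps the muscle identity of arteries. Pericytes are the mural cells of capillaries and share Notch3 with vascular muscle, while visceral muscle, which moves the gut wall, shares the contractile proteins.

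The series is an inventory of single smooth muscle and neighbouring cells, each sorted by fluorescence into a plate well and sequenced by Smart-Seq2, which reads whole transcripts and counts reads rather than tagged molecules. The 3 mice with members carried the dual reporter ACTA2GFP:CSPG4dsRED, named after a contractile and a mural cell gene, and gave 1106 cells. They were the female 20GG79:1 and the male 20GG79:6, each on 1 plate, and the female 20GG95:3 on plate 053s and a further plate. Single reporters (PDGFRbGFP, PDGFRaH2bGFP, CSPG4dsRED or ACTA2GFP) marked the other 8 mice, all male. No agent or genotype other than the reporters is named. Ages are labelled as 8 to 30 weeks, the series text speaks of males only, and the protocol names the heart while the tissue label says colon. The labels do not state the sort gates, so the share of members on a plate can be set by the sort. Each mouse's value below is a sum over its cells, and values are ordered 20GG79:1, 20GG79:6, 20GG95:3 unless said otherwise.

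The members made up 2.79% (exact Clopper-Pearson 95% interval 1.34 to 5.06), 5.79% (3.20 to 9.52) and 17.6% (14.4 to 21.2) of the cells of the 3 mice. Plate 053s and the other plate of 20GG95:3 held 24.7% (18.7 to 31.6) and 13.5% (9.93 to 17.7), so the share also differed between plates of 1 animal. The other lines gave 0 of 509 cells. For the largest of them, PDGFRbGFP, 0 members allow a share of up to 1.27%, the upper bound of the same exact interval. Intervals and limits cover counting error only. Members held 52484 to 563375 gene counts per cell, with a median of 159028, and 2224 to 8987 detected genes.

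The final step of the rule parted the Notch3-positive cells from pericyte-gated cells, which met the first 3 criteria and had the opposite balance of the gene pairs. There were 42, 15 and 79 of these in the 3 mice and 1 in the CSPG4dsRED line. Most cells lay far from the border, and a few lay at it. The members nearest to it had 280.5 against 244.9 CPM, 127.4 against 99.1 CPM and 53.7 against 35.8 CPM for the 2 sums. The nearest pericyte-gated cells had 15.7 against 15.7 CPM, 1286 against 1461 CPM and 1009 against 1240 CPM. By Notch3, the members closest to the threshold had 244.3, 282.8 and 321.1 CPM, and otherwise matching cells just outside had 180.4, 178.1 and 118.3 CPM. In 19 members the sum of P2rx1 and Sorbs2 stayed under 500 CPM. All members had Sorbs2 counts, while 25 had no P2rx1 counts, so in these Sorbs2 alone met the last criterion.

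**Figure D1:**
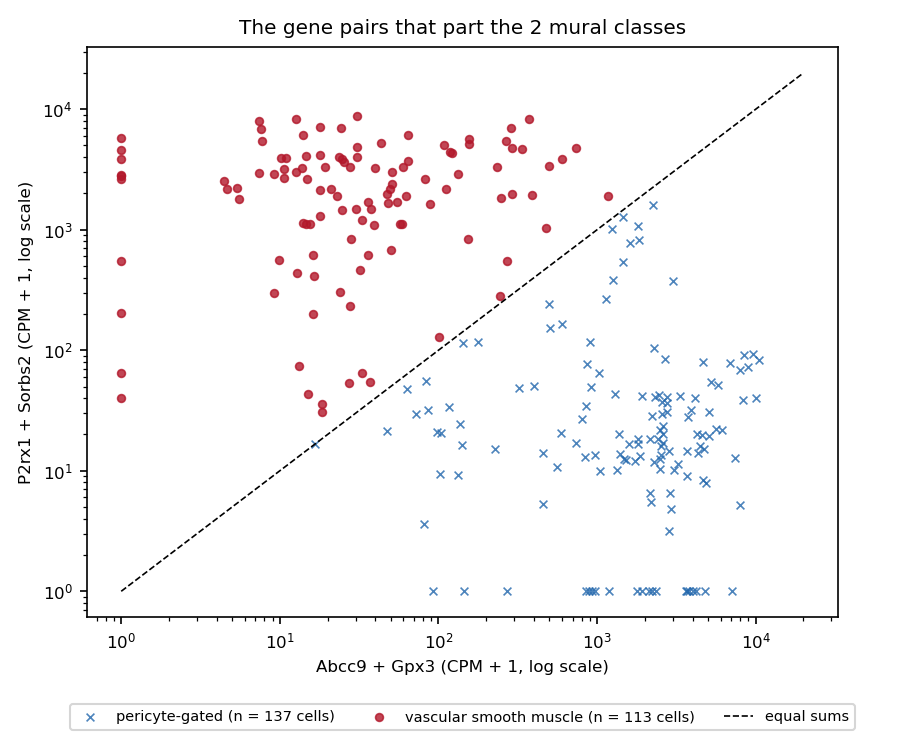
Each point is 1 Notch3-positive cell, with the sum of Abcc9 and Gpx3 on the horizontal axis and the sum of P2rx1 and Sorbs2 on the vertical axis, both in CPM + 1 on log scales. The members (filled circles) lie above the dashed line of equal sums and the pericyte-gated cells (crosses) on or below it, with few cells near the line.

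The label was set beside the 6 markers Notch3, Pln, P2rx1, Nrip2, Rasd1 and Kcna5, of which Notch3 and P2rx1 also stand in the rule. All 6 were chosen with earlier results of these data known. Their levels describe the members and are no independent check of the label. In GRCm38 coordinates of the GENCODE annotation, Notch3 lies at chr17:32120820.0-32166852.0, Pln lies at chr10:53337667.0-53345987.0, P2rx1 lies at chr11:72999103.0-73015200.0, Nrip2 lies at chr6:128399296.0-128416427.0, Rasd1 lies at chr11:59963181.0-59964944.0 and Kcna5 at chr6:126532551.0-126535412.0. The 4 markers outside the rule summed to 4279, 2579 and 4405 CPM in members, to 1055, 378.25 and 268.7 CPM in pericyte-gated cells and to 22.5, 89.1 and 177.75 CPM in visceral muscle-gated cells, a class defined below. Of the members, 83 (73.5%) had at least 3 of these 4 markers at 50 CPM or more, against 6.57% of pericyte-gated and 1.64% of visceral muscle-gated cells. Another 17 members had 2 of them, 8 had 1 and 5 had none. The cells with none were 2 of the 14 of 20GG79:6 and 3 of the 43 on the second plate of 20GG95:3, so the label is not borne out by these genes in every member. Nrip2, a nuclear receptor-interacting protein, was at 50 CPM or more in 92.9% of members. Pln, phospholamban, the inhibitor of the calcium pump of the sarcoplasmic reticulum, reached that level in 87 members, and Rasd1, a small G protein induced by glucocorticoids, in 73. Kcna5, a voltage-gated potassium channel, reached it in 70 members and P2rx1, the ATP-gated channel of sympathetic transmission, in 66.

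**Figure D2:**
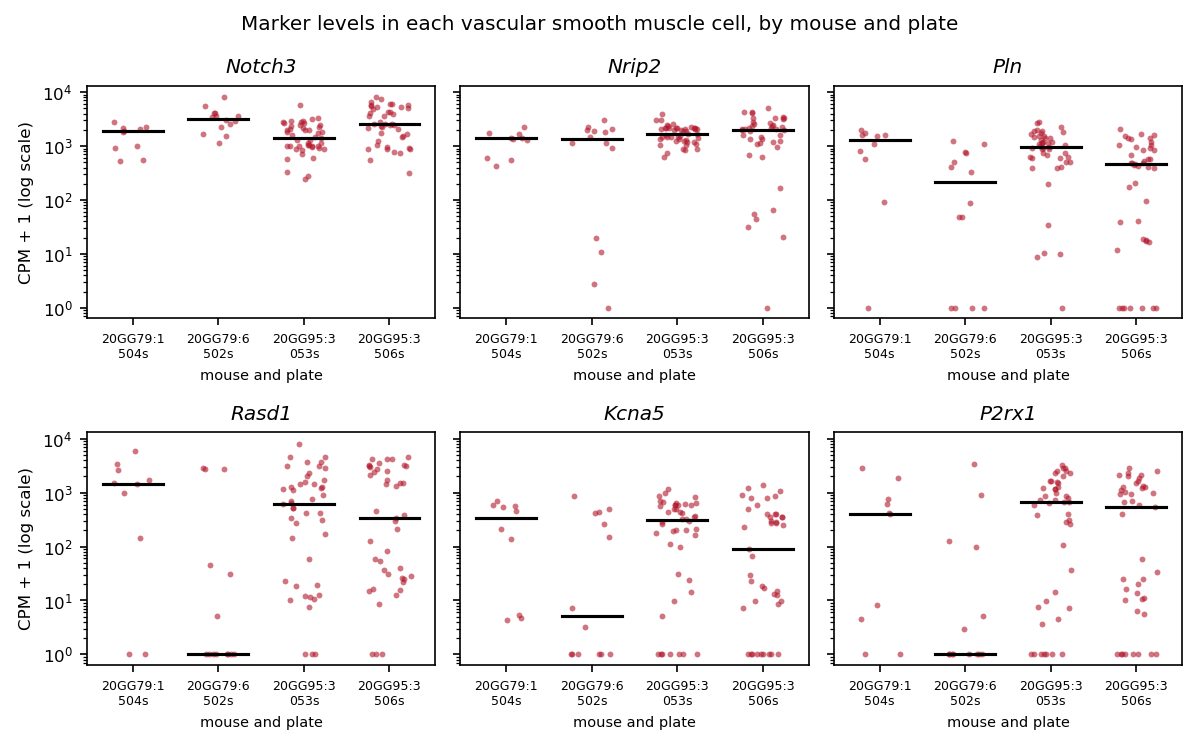
Each point is 1 member, by mouse and plate on the horizontal axis, with its level of the named marker in CPM + 1 on a log scale, and bars mark medians. Notch3 was above 200 CPM in all by the rule, and the medians of Rasd1 and P2rx1 lay at 0 CPM on the plate of the male 20GG79:6.

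The male 20GG79:6 stood apart in these markers. Per cell, its median P2rx1 was 0 CPM, against 407.3 in 20GG79:1 and 667.1 and 543.1 on the plates of 20GG95:3. Its median Rasd1 was 0 CPM, against 1468, 624.7 and 332.7 CPM in the same order. Summed over cells, P2rx1 was at 703.5, 75.9 and 891.96 CPM in the 3 mice, and the male's value lay far below both females. Pln was at 1066, 406.9 and 848.96 CPM and Kcna5 at 323.6, 143.3 and 351.04 CPM, again lowest in the male. Notch3 went the other way, with 1609.6, 3349 and 2242 CPM, and Nrip2 did not follow the male, with 1316, 1304 and 1823 CPM. Sex, plate and animal cannot be told apart here, since the only male with members filled 1 plate.

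Markers of other cells were counted in the members as well. The 6 blood endothelial markers summed to 11.8, 50.2 and 30.5 CPM, each of them under 10 CPM on average, and the 3 mesothelial markers to 0, 0.999 and 0 CPM. The 6 lymphatic markers summed to 0, 16 and 5.65 CPM and the 5 erythrocyte markers to 0.394, 4.49 and 0.419 CPM. The 6 visceral muscle markers, Actg2 chief among them, summed to 710.9, 493.04 and 650.8 CPM in members and to 6872, 6168 and 6401 CPM in visceral muscle-gated cells. The 6 immune markers summed to 0.394, 290.3 and 0.0698 CPM, the 6 epithelial markers to 5.12, 319.8 and 19.2 CPM, and the 6 glial markers to 2.76, 100.6 and 9.77 CPM. All 3 sums were highest in the male. In the same male, pericyte-gated cells had 649.8 CPM of the immune markers, 294.6 CPM of the epithelial and 94.9 CPM of the glial markers. In the members of this male, Cd74, the invariant chain of MHC class II, was at 197.2 CPM, Muc2, an intestinal mucin, at 267.4 CPM, and Ptprc at 0.499 CPM. Cd74 reached 200 CPM in 6 of these members, Muc2 in 1 and Ptprc in 0. Their part in the male's marker levels was not tested. The 8 pericyte markers summed to 2546, 3624 and 1688 CPM in members and to 8634, 9118 and 9802 CPM in pericyte-gated cells. Rgs5, a regulator of G protein signalling found in both mural types, made up most of the members' sum with 2126, 2590.5 and 1320.0 CPM. Vtn, vitronectin, was at 172.4, 691.997 and 183.6 CPM, highest in the male. Of the members, 49 had at least 2 pericyte markers at 200 CPM or more, 7 had 2 markers of interstitial cells of Cajal and 2 had 2 immune markers. Visceral muscle, fibroblast and epithelial markers did so in 1 member each. The 4 markers of interstitial cells of Cajal summed to 1040, 988.6 and 874.6 CPM in members and to 1121, 341.4 and 777.4 CPM in pericyte-gated cells.

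The spike-in RNA added to each well gave a measure that the rule did not use. It took 1.74%, 1.85% and 1.67% of the summed counts of members and 2.75%, 2.57% and 3.05% of those of pericyte-gated cells. The share was lower in members in 3 of 3 mice, and on each of the 4 plates. A paired exact permutation test over 3 mice cannot give a two-sided p below 0.25. Visceral muscle-gated cells had 1.58%, 1.36% and 2.01%, and here members were higher in 20GG79:1 and 20GG79:6 and lower in 20GG95:3. The plates of 20GG95:3 disagreed, however. Members were higher on plate 053s, with 1.18% against 1.07%, and lower on the other plate, with 2.24% against 2.89%. Members also had more gene counts per cell than pericyte-gated cells, with medians of 270450, 281286 and 152878 against 178905, 151779 and 100247. Detected genes followed, with medians of 5900, 6095 and 3470 against 5331, 5368 and 2963. This depth difference ran beside every comparison with pericyte-gated cells.

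For the comparisons below, the counts of the cells of a class were added up within each mouse and scaled to CPM, and differences are of log2(CPM + 1), members minus the other class, given as mean ± SD over the 3 mice. A gene is called higher or lower when it differed at least 4-fold in the same direction in each mouse and reached 50 CPM in the higher class of each. Because the same cells' counts chose the members, these differences are descriptions and carry no test. No share of all kept genes without overlap between classes is given, so remarks on overlap below describe single genes only. Against pericyte-gated cells, 60 genes were higher, 0.85% of the 7059 genes kept, and 56 were lower, 0.793%. Against visceral muscle-gated cells, which had Acta2 of at least 1000 CPM and Myh11 of at least 500 CPM without Notch3 or markers of other lineages, 2.02% of the 7076 genes kept were higher and 2.93% lower. There were 550 such cells. The median difference of all kept genes was -0.06 against pericyte-gated and -0.26 against visceral muscle-gated cells, and list medians are to be read against these. With size factors of the RLE method, the share of calls against visceral muscle-gated cells that were higher moved from 40.9% to 56.2% and the median difference to 0.05.

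The genes with the most counts per kilobase of exon in the members, 2 predicted genes apart, included those of the contractile apparatus and of the immediate-early response. Myl9, the regulatory myosin light chain, had 3055 CPM per kilobase and Acta2, smooth muscle actin, 2643 CPM per kilobase, both means over mice. Sparcl1, a matricellular protein, followed with 1983 CPM per kilobase and Fos, an immediate-early transcription factor, with 1895 CPM per kilobase. Nr4a1, an orphan nuclear receptor of the same response, had 1289 CPM per kilobase. Tagln, an actin-binding protein, had 941 and Myh11, the smooth muscle myosin heavy chain, 668 CPM per kilobase.

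Most contractile genes were not called against pericyte-gated cells. Of 35 genes of the list that were kept, 3 were higher than in pericyte-gated cells and 0 lower, with a median difference of 1.23. Myh11 was at 4829, 4566 and 5836 CPM in members and 1180.1, 1310.0 and 1405 CPM in pericyte-gated cells, a difference of 1.96 ± 0.14 that was not 4-fold in each mouse although the groups did not overlap. Acta2 was at 5283, 4284 and 7846 CPM against 2102, 2107 and 3888 CPM. The 3 called genes were Sorbs2, which the rule used, Palld and Synm. Palld, palladin, an actin scaffold, was at 929.8, 623.8 and 892.1 CPM against 93.4, 40.5 and 155.4 CPM. Synm, synemin, an intermediate filament protein, was at 302.3, 192.7 and 161.7 CPM against 17.9, 1.32 and 1.22 CPM. The same list, set against visceral muscle-gated cells, had 2 higher genes and 0 lower of 36 kept, with a median difference of -0.04. The visceral gate itself required Acta2 and Myh11. Xirp1, an actin-binding repeat protein of striated muscle, was at 263.4, 269.4 and 377.2 CPM in members and 0.126, 0.269 and 15.9 CPM in visceral muscle-gated cells. In the other direction, Actg2, the enteric actin, was at 581.03, 428.6 and 619.7 CPM against 2269.9, 2078 and 3239 CPM, and Cnn1, calponin, at 440.5, 435.4 and 602.5 CPM against 1622, 1365 and 2165 CPM. Neither passed 4-fold in every mouse, though neither overlapped between the groups.

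The promoters of Myl9 and Acta2, the contractile genes with the most counts per kilobase, are shown. Those of P2rx1 and Kcna5 are shown as the only marker windows that held TGGGAA, and not by their level. The windows hold letters of motifs known from muscle and Notch biology. Each sequence is the 250 bases before the start that RefSeq gives the gene, on the gene's strand, with build GRCm38.p6. For P2rx1 and Kcna5 this start differs from the GENCODE coordinates above. The P2rx1 window runs into the gene as placed there. Capitals mark the CArG box, the motif bound by serum response factor, in Myl9. In the other 3 they mark TGGGAA or its reverse complement, part of the motif bound by the Notch effector RBPJ. Only exact matches to CCWWWWWWGG, with W for A or T, were taken as a CArG box. The stretches ccctatatgg and ccttgttTGG in the Acta2 window each depart from it in a single letter and were not counted as a CArG box. The marked TGGGAA begins within the latter stretch.
Myl9 (chr2:156775214-156775463, + strand): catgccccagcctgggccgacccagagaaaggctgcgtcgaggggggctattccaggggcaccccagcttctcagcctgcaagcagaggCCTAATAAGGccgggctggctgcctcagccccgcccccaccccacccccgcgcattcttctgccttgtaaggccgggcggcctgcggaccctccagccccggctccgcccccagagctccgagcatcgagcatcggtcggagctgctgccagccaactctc
Acta2 (chr19:34255374-34255623, - strand): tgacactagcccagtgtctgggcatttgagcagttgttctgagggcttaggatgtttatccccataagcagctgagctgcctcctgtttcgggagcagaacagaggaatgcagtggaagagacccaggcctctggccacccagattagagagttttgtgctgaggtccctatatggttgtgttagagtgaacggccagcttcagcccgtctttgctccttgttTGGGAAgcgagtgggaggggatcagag
P2rx1 (chr11:72998895-72999144, + strand): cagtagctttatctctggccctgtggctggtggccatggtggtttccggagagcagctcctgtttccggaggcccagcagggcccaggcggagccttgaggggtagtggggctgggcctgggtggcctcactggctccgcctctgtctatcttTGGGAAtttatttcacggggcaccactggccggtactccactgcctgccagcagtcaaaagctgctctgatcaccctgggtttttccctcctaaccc
Kcna5 (chr6:126535556-126535805, - strand): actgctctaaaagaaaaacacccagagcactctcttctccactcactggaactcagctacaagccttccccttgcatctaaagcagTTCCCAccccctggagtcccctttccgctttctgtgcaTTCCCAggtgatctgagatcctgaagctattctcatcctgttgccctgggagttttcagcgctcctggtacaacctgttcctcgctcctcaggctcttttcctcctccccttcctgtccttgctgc

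Both motifs were searched on both strands in all 32851 windows. The CArG box stood in 1.47% of them, and in 3 of 42 windows (7.14%) of the contractile list, for which 32 of 38 genes had a window. TGGGAA stood in 21.6% of all windows, in 5 of 17 windows (29.4%) of the Notch list, in 12 of 42 windows (28.6%) of the contractile list and in 2 of the 4 windows of the markers. A match is a description of these letters and not a binding site. Windows for Nrip2 and Rasd1 were not used here.

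A minority of the ion channel genes was called in each comparison, apart from the potassium channel list against pericyte-gated cells. The calls of that list include Abcc9, which the rule used against pericyte-gated cells, and the marker Kcna5. Of the potassium channel list, 4 genes were higher and 2 lower than in pericyte-gated cells among 11 kept, with a median of 2.20. Against visceral muscle-gated cells 3 of 12 were higher and 0 lower, with a median of 0.49. Kcnab1, a subunit that speeds the closing of voltage-gated channels, was at 478.7, 164.8 and 339.1 CPM in members, 2.07, 0.329 and 16.5 CPM in pericyte-gated and 0.293, 14.3 and 17.5 CPM in visceral muscle-gated cells. The members of all mice lay above every other value. Kcna5 was at 36.5, 13.2 and 5.10 CPM in pericyte-gated and 5.93, 13.1 and 7.23 CPM in visceral muscle-gated cells, below each of the members' values given above. Kcnh2, a channel that helps repolarise cardiac and smooth muscle, was at 308.2, 107.8 and 310.3 CPM against 9.02, 17.5 and 13.3 CPM in pericyte-gated cells, and visceral muscle-gated cells overlapped the members with 205.2, 253.3 and 178.5 CPM.

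Among subunits of the ATP-sensitive potassium channel, Abcc8, the sulfonylurea receptor best known from the pancreatic beta cell, was at 148.8, 136.8 and 130.9 CPM in members, 0.366, 17.8 and 14.6 CPM in pericyte-gated and 0.0838, 14.3 and 5.99 CPM in visceral muscle-gated cells. It reached 50 CPM in 27 members (23.9%). Abcc9, the vascular sulfonylurea receptor and a gene of the rule, was at 48, 37.7 and 42 CPM in members and 783.8, 929.2 and 1099 CPM in pericyte-gated cells. Kcnj8, the pore subunit, which the rule did not name, was at 147.2, 204.7 and 77 CPM against 1181, 1160.1 and 1133 CPM in pericyte-gated cells. Visceral muscle-gated cells, with 147.5, 136.7 and 336.4 CPM of Kcnj8, overlapped the members. Kcns3, a silent subunit of voltage-gated channels, was at 0.787, 0.499 and 0.419 CPM in members, from 10 counts in all, and at 158.2, 140.98 and 137.8 CPM in visceral muscle-gated cells.

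In the calcium list, 2 of 22 kept genes were higher than in pericyte-gated cells and 3 of 21 higher than in visceral muscle-gated cells, with none lower in either. The medians were 1.17 and 0.98. Cacna1g, a low-voltage-activated calcium channel, was at 257.8, 355.7 and 197.96 CPM in members, 6.71, 16.8 and 2.77 CPM in pericyte-gated and 0.377, 1.13 and 1.00 CPM in visceral muscle-gated cells, and was called in both. It reached 50 CPM in 33 members (29.2%), so the summed level came from a minority of cells. Pln was at 136.8, 9.88 and 28.1 CPM and 1.01, 7.26 and 49.2 CPM in the other classes. Atp2a3, a pump that returns calcium to the store, was at 763.3, 1509 and 1280.1 CPM in members and 25.5, 154.3 and 91.4 CPM in visceral muscle-gated cells, and differed by 3.98 ± 0.80. Cacna1c, the main channel of voltage-dependent calcium entry, was at 156.7, 223.9 and 171.9 CPM against 109.003, 128.5 and 136.1 and 66.2, 55.4 and 115.03 CPM, and was not called. Scn4b, the beta-4 subunit of sodium channels, was at 150.4, 172.8 and 192.7 CPM against 25.8, 0.988 and 7.75 and 1.82, 15.3 and 1.91 CPM. It was the 1 gene called in the sodium and chloride channel list, of 6 kept with a median of 1.00 against pericyte-gated and of 7 kept with a median of 1.44 against visceral muscle-gated cells. Ano1, the calcium-activated chloride channel that also marks interstitial cells of Cajal, was at 1014, 866.2 and 851.9 CPM in members and reached 50 CPM in 85 members. Kit, the other defining marker of those cells, was at 0, 74.6 and 0 CPM, and reached 200 CPM in 1 member of 20GG79:6.

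**Figure D3:**
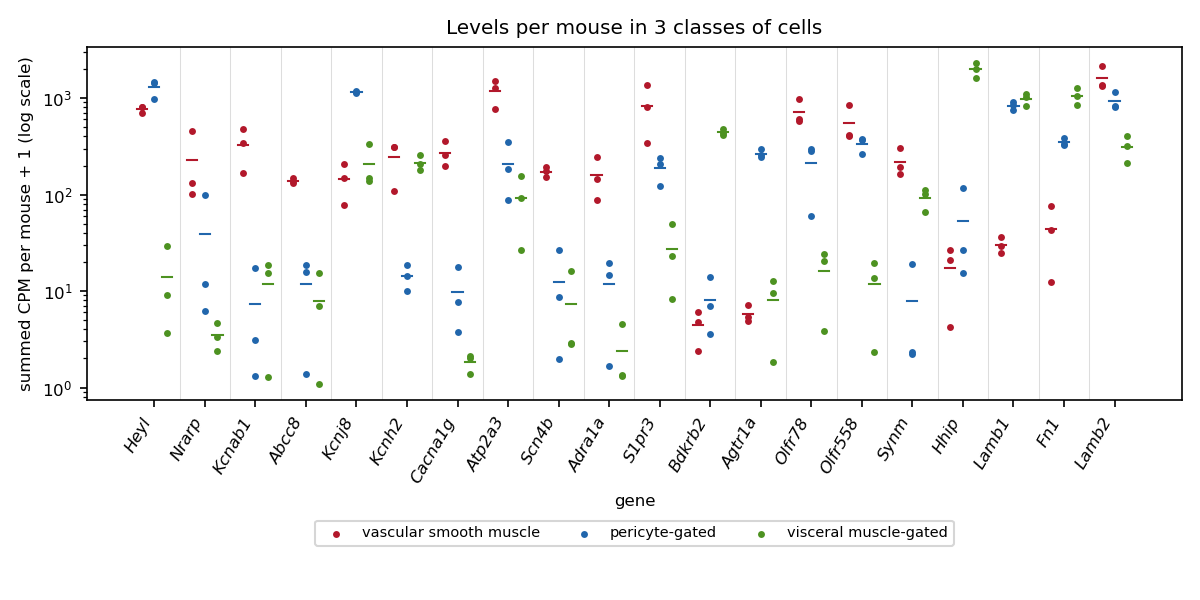
Points are the summed CPM + 1 of each of the 3 mice on a log scale, for members, pericyte-gated and visceral muscle-gated cells, and bars are the means over mice. Kcnab1, Cacna1g and Abcc8 were higher in members than in both other classes, Heyl was high in both members and pericyte-gated cells, and Lamb1 was lower in members than in both.

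Receptors for vasoconstrictors were called in both directions, and most of those kept were not called. Against pericyte-gated cells, 2 of 15 kept genes were higher and 1 lower, with a median of -1.17. Of all genes kept there, 0.85% were higher and 0.793% lower. Against visceral muscle-gated cells, 2 of 17 were higher and 5 lower, with a median of -2.83, beside 2.02% and 2.93% of all genes kept. Adra1a, the alpha-1A adrenergic receptor for noradrenaline, was at 246.03, 145.04 and 87.7 CPM in members, 13.8, 0.659 and 18.4 CPM in pericyte-gated and 0.335, 0.322 and 3.57 CPM in visceral muscle-gated cells. It reached 50 CPM in 26 members, so its sum, like that of Abcc8, came from a minority of cells. P2rx1, which opens on the ATP that the same nerves release, was higher than in pericyte-gated cells by the rule's own choice. Against visceral muscle-gated cells, at 4.21, 34.6 and 27.3 CPM, it was not called, since the male's value of 75.9 CPM was less than 4 times its partner. S1pr3, a receptor for sphingosine 1-phosphate, was at 808.95, 341.3 and 1355 CPM in members and 21.9, 7.31 and 48.6 CPM in visceral muscle-gated cells. Agtr1a, the angiotensin II receptor, was at 4.33, 6.24 and 3.91 CPM in members and 244.3, 253.4 and 296.5 CPM in pericyte-gated cells, with no overlap. Ednra, the endothelin receptor of vascular muscle, was at 1202, 1534 and 891.1 CPM in members, 1149, 1284 and 1066 CPM in pericyte-gated and 1002, 855.7 and 548.4 CPM in visceral muscle-gated cells. Within each mouse members lay above visceral muscle-gated cells, by less than 4-fold, and the ranges over mice overlapped. Against pericyte-gated cells they were higher in 2 mice and lower in 20GG95:3.

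The 5 constrictor receptors that were lower than in visceral muscle-gated cells were Bdkrb2, F2r, Lpar1, Ptger1 and S1pr2. Bdkrb2, the bradykinin B2 receptor, was at 5.12, 3.74 and 1.40 CPM against 417.9, 481.6 and 432.05 CPM. F2r, the thrombin receptor, was at 103.1, 32.7 and 26 CPM against 1683, 1439 and 933.4 CPM. Lpar1, a receptor for lysophosphatidic acid, was at 4.72, 12.2 and 13.3 CPM against 313.4, 395.1 and 319.99 CPM. All members' values lay below all visceral values for these 3 genes, and Bdkrb2 and F2r are themselves on the list of visceral muscle markers.

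Among genes of relaxation and cyclic nucleotides, 0 of 21 kept genes were called against pericyte-gated cells, with a median of 0.11. At the shares of all genes given above, a list of this size would seldom hold a call, so nothing is read from that count. Gucy1a1, a subunit of the nitric oxide receptor, was at 1861, 1565 and 1614 CPM in members and 1591, 1879 and 1532 CPM in pericyte-gated cells. In the comparison with visceral muscle-gated cells 3 of 22 were higher and 2 lower, with a median of 0.18. Ptgir, the prostacyclin receptor, was at 193.3, 410.2 and 199.3 CPM against 5.80, 24.2 and 19.5 CPM, and Adora2b, an adenosine receptor, at 89.4, 97.6 and 53.9 CPM against 0.0628, 0.107 and 0.0910 CPM, with 50 CPM reached in 18 members (15.9%). Pde3a, a phosphodiesterase that breaks down cyclic AMP, was at 527.5, 1316 and 869.8 CPM against 112.3, 143.5 and 168.9 CPM. Pde4d, another enzyme of that kind, was at 2.76, 1.25 and 2.02 CPM against 199.8, 172.9 and 164.6 CPM, and Ptger2, a prostaglandin E2 receptor, at 6.30, 0.999 and 0.140 CPM against 53.6, 81.8 and 71.6 CPM. Thus each direction held both a receptor and a phosphodiesterase.

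Among regulators of G proteins and small GTPases, 5 of 20 kept genes were higher and 1 lower than in visceral muscle-gated cells, with a median of -0.09, and 1 of 19 was higher and 1 lower than in pericyte-gated cells, with a median of 0.08. Rgs4, which shortens G protein signals, was at 1516, 1475 and 2192 CPM against 27.8, 42.4 and 53.8 CPM, with 1060.2, 1460.3 and 840.5 CPM in pericyte-gated cells. Rasl12, a Ras-like protein, was at 1009.7, 1009 and 988.8 CPM against 22.9, 32.1 and 45 CPM. Rasd1 was called against both classes, at 383.1, 55.7 and 104.5 CPM in pericyte-gated and 9.24, 33.5 and 62.6 CPM in visceral muscle-gated cells. Arhgap42, a GTPase-activating protein of smooth muscle, was at 16.9, 38.7 and 41.7 CPM in members and 233.4, 203.95 and 265.96 CPM in pericyte-gated cells.

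Of the Notch genes, 9 of 13 kept were called in neither direction against visceral muscle-gated cells. The other 4 were higher and 0 lower, the median of the whole list was 2.17, and Notch3, a rule gene absent from the visceral gate by definition, was 1 of the 4. Heyl, a transcriptional repressor switched on by Notch, was at 806.2, 695.99 and 814.1 CPM in members, 1454, 1448 and 969.5 CPM in pericyte-gated and 28.4, 2.69 and 8.16 CPM in visceral muscle-gated cells. Members thus lay below pericyte-gated cells in each mouse and far above visceral muscle. Nrarp, a Notch target that dampens the pathway, was at 132.3, 453.3 and 100.5 CPM against 2.37, 3.65 and 1.38 CPM, and Nrip2 was at 6.32, 35.3 and 58.7 CPM in visceral muscle-gated cells. Jag1, a ligand, was at 177.1, 282.1 and 103.03 CPM in members and 37.2, 39.6 and 32.2 CPM in visceral muscle-gated cells, and was not called. Against pericyte-gated cells 0 of 14 were higher and 1 was lower, with a median of 0.14. This was Dll4, a ligand, at 2.76, 1.25 and 0.768 CPM in members, from 23 counts in all, and 163.99, 356.5 and 108.998 CPM in pericyte-gated cells. Nrip2 was at 498.8, 299.5 and 131.04 CPM there, below the members in each mouse but not 4-fold in each. Exons of Nrip2 overlap those of Gm44596 on the same strand, which was at 494.7 CPM in members, and exons of Notch3 and Nrarp overlap unnamed genes on the other strand, at 152.1 and 177.3 CPM. The counting is not stated to use strand, so such reads cannot be told apart.

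Transcription factors showed 3 higher and 4 lower genes of 30 kept against visceral muscle-gated cells, with a median of 0.58, and 0 higher and 1 lower of 24 against pericyte-gated cells, with a median of 0.34. Nr2f2, an orphan nuclear receptor known from venous identity, was at 322.4, 351.2 and 255.1 CPM in members, 234.8, 478.7 and 328.99 CPM in pericyte-gated and 11.5, 13.5 and 12.8 CPM in visceral muscle-gated cells. Mef2c, a muscle transcription factor, was at 1089, 421.6 and 587.6 CPM against 89.8, 76 and 104.96 CPM in visceral muscle-gated cells, and Ebf1 at 526.3, 390.4 and 261.3 CPM against 1.95, 14.1 and 15.6 CPM. The lower genes were Foxf2, Hic1, Pitx1 and Tcf21. Foxf2, a forkhead factor of gut mesenchyme, was at 1.57, 2.25 and 0.279 CPM against 195.4, 130.4 and 177.1 CPM. Pitx1, a homeobox factor of the hindlimb and hindgut, was at 82.3, 3.25 and 23.3 CPM against 450.3, 417.3 and 428.1 CPM. Nkx2-3, a homeobox factor of gut mesenchyme, was measured in all 3 classes, with 535.8, 542.7 and 307.2 CPM in members. Tcf21 was the 1 listed factor called against pericyte-gated cells, at 62.2, 74.9 and 21.6 CPM in members and 335.3, 338.7 and 201.5 CPM there. Sox6, which is not on the list, was among the leading genes against pericyte-gated cells, at 176.7, 158.02 and 119.99 CPM against 8.78, 5.27 and 7.86 CPM.

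Most matrix genes were called in neither direction, and those called were lower in the members. Of the fibrillar and elastic list, 0 of 40 kept genes were higher and 12 lower than in visceral muscle-gated cells, with a median of -2.42, and 0 of 39 were higher and 3 lower than in pericyte-gated cells, with a median of -1.63. Fn1, fibronectin, was at 42.1, 75.1 and 11.3 CPM in members, 332.98, 382.2 and 323.9 CPM in pericyte-gated and 1058, 1261 and 855.6 CPM in visceral muscle-gated cells. Fbn1, fibrillin-1, was at 66.1, 71.1 and 52 CPM against 495.1, 346.6 and 308.6 and 271.97, 399.03 and 283.5 CPM. Tgfbi, a collagen-binding protein induced by TGF-beta, was at 44.1, 32.2 and 12.3 CPM against 2393, 2053 and 2197 CPM in visceral muscle-gated cells. The 6 fibroblast markers, 2 of which, Dcn and Lum, are on this list, summed to 179.1, 291.6 and 40.4 CPM in members, to 1269, 1190.1 and 1188 CPM in pericyte-gated and to 1591, 850.1 and 986.5 CPM in visceral muscle-gated cells. Their part in these matrix differences was not tested.

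In the basement membrane list the laminin beta chains went in opposite directions. Lamb2, the beta-2 chain of mature muscle and vessels, was at 1335, 1369.5 and 2128 CPM in members, 1148, 830.3 and 805.4 CPM in pericyte-gated and 212.6, 320.1 and 403.7 CPM in visceral muscle-gated cells. Lamb1, the beta-1 chain, was at 23.6, 28.2 and 35.5 CPM in members, 742.5, 911.7 and 837.3 CPM in pericyte-gated and 1014, 1098 and 828.7 CPM in visceral muscle-gated cells, and its differences were -4.80 ± 0.24 and -5.04 ± 0.46. Lamc3, a gamma chain, was at 6.30, 53.9 and 46.8 CPM against 622.8, 946.95 and 1051 CPM in pericyte-gated cells, and Col4a2, a type IV collagen chain, at 458.996, 615.6 and 610.1 CPM against 2262, 2530.2 and 2509 CPM. Reads of the neighbouring Col4a1 can overlap Col4a2. Lama5, the alpha-5 chain, was at 710.1, 1492 and 844.8 CPM in members against 214.7, 754.5 and 232.2 and 220.1, 283.2 and 325.7 CPM, and was not called. Over the whole list, 0 of 16 kept genes were higher and 3 lower than in pericyte-gated cells, with a median of -1.12, and 1 of 17 was higher and 2 lower than in visceral muscle-gated cells, with a median of -0.87.

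Integrins and the dystrophin complex had 3 higher and 2 lower genes of 27 kept against visceral muscle-gated cells, with a median of -0.29. None of 24 was called in either direction against pericyte-gated cells, where the median was 0.24. Bcam, a receptor for laminin alpha-5, was at 1784, 1790.2 and 2303 CPM in members and 43.2, 197.9 and 202.9 CPM in visceral muscle-gated cells. Itga7, the laminin-binding integrin of muscle, was at 995.9, 1559.7 and 1265 CPM against 82, 118.9 and 139.6 CPM. Among junction genes, Gja4, a gap junction protein of vessels, was at 1009.7, 594.4 and 790.3 CPM in members, 988.8, 746.95 and 348.7 CPM in pericyte-gated and 14.1, 21 and 20 CPM in visceral muscle-gated cells. Cdh6, a cadherin, was at 333.03, 157.02 and 118.6 CPM in members against 22.7, 23.7 and 1.33 CPM in pericyte-gated cells. It was the 1 junction gene of 17 called there, with a median of 0.02, and 1 higher and 3 lower of 18, with a median of -0.55, were called against visceral muscle-gated cells.

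Of the growth factor list, 3 genes were higher and 5 lower of 33 kept against visceral muscle-gated cells, with a median of -1.43, and 1 was higher and 0 lower of 29 against pericyte-gated cells, with a median of -0.45. Hhip, which binds and holds back Hedgehog ligands, was at 20.1, 25.5 and 3.28 CPM in members and 2306, 2022 and 1615 CPM in visceral muscle-gated cells, for which it is a marker. Ptch1, the Hedgehog receptor and itself a target of the pathway, was at 26, 9.24 and 37.4 CPM against 629.1, 693.8 and 588.01 CPM. Bmp4, a secreted ligand, was at 24, 29.5 and 19.2 CPM against 1025, 867.9 and 847.4 CPM. Bmp2, a related ligand, was called against pericyte-gated cells with 229.5, 234.9 and 129.6 CPM against 46, 5.93 and 8.53 CPM. Pdgfrb, the receptor that draws mural cells to vessels, was at 1128, 2002 and 1404 CPM in members, 2897, 2871 and 3139.6 CPM in pericyte-gated and 227.99, 303.5 and 234.6 CPM in visceral muscle-gated cells. Cspg4, the gene after which the second reporter is named, was at 847.1, 1152 and 1202 CPM, 1324, 1489 and 1024 CPM and 86.7, 91 and 175.7 CPM in the same order of classes.

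Sensory receptors were also counted. Of the olfactory and related receptors listed, 3 of 4 kept genes were higher than in visceral muscle-gated cells and 0 of 5 were called against pericyte-gated cells, with medians of 4.85 and 0.14. Olfr78, an olfactory receptor known to respond to short-chain fatty acids in mouse vessels, was at 570.8, 975.6 and 608.8 CPM in members, 284.3, 58.6 and 293.8 CPM in pericyte-gated and 2.85, 19.6 and 23.2 CPM in visceral muscle-gated cells. It reached 50 CPM in 78 members. Olfr558 was at 846.7, 404.7 and 410.4 CPM in members, 363.3, 372.98 and 260.1 CPM in pericyte-gated and 1.34, 12.7 and 18.3 CPM in visceral muscle-gated cells. Gprc5c, an orphan receptor, was at 427.5, 436.6 and 870.2 CPM in members and 31.9, 53.7 and 27.5 CPM in visceral muscle-gated cells. Of the energy list, 2 of 15 kept genes were higher than in visceral muscle-gated cells and 0 of 15 were called against pericyte-gated cells, with medians of 0.11 and 0.34. Ndufa4l2, a mitochondrial protein induced by hypoxia, was at 305.5, 1067 and 395.7 CPM against 11, 4.03 and 3.24 CPM, and Cox4i2, a lung and vessel isoform of a cytochrome oxidase subunit, at 164.5, 317.3 and 185.2 CPM against 4.19, 6.88 and 8.16 CPM.

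**Figure D4:**
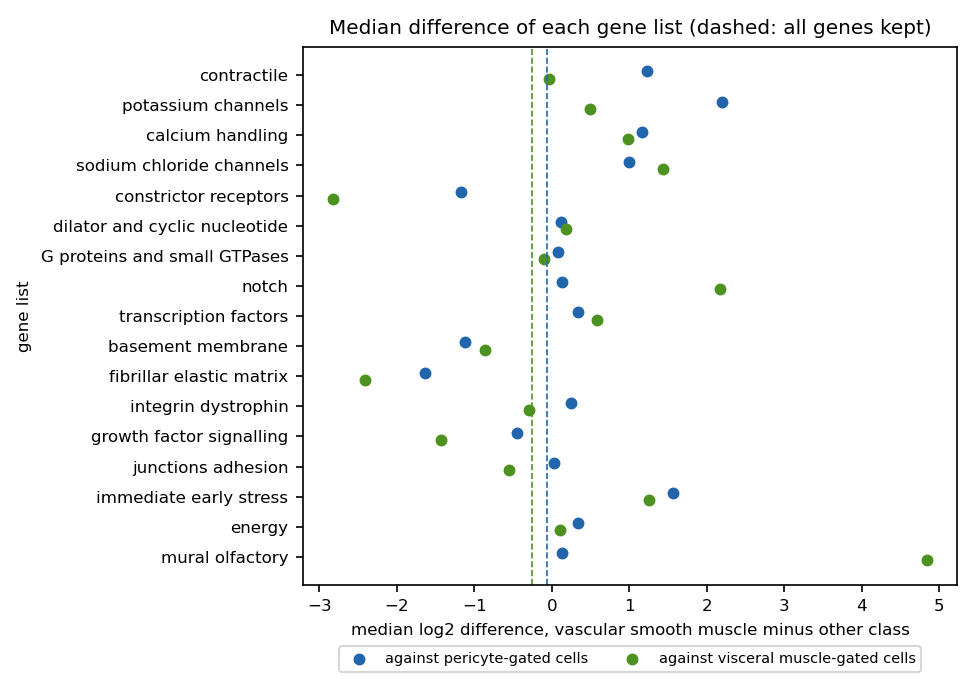
Each point is the median over a gene list of the log2 difference, members minus pericyte-gated or minus visceral muscle-gated cells, and dashed lines are the medians of all genes kept, -0.06 and -0.26. Potassium channels lay highest against pericyte-gated cells with 2.20, olfactory and related receptors highest against visceral muscle-gated cells with 4.85, and constrictor receptors lowest against the latter with -2.83.

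Immediate-early and stress genes, which respond within minutes to stretch, agonists or the dissociation of tissue, were a further group with higher levels in members. Of the list, 4 of 32 kept genes were higher than in pericyte-gated cells and 3 of 32 higher than in visceral muscle-gated cells, with none lower and medians of 1.57 and 1.26. The 34 genes of the list found in the table summed to 33330 CPM in members of 20GG79:1, 15907 in 20GG79:6, and 37610 on plate 053s and 40093 on the other plate of 20GG95:3. On the same 4 plates pericyte-gated cells had 12657, 6963, 7544 and 7520 CPM and visceral muscle-gated cells 11817, 12149, 10383 and 12390 CPM. Members lay above both on each of the 4 plates, and those of the male plate were nearest to the others. The part of dissociation in these levels was not tested.

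Nr4a1 was at 4306, 2128 and 7139 CPM in members, 979.6, 646.1 and 615.1 CPM in pericyte-gated and 727.1, 913.8 and 835.5 CPM in visceral muscle-gated cells. It did not overlap between classes and was not called, since the male's members were less than 4-fold above. Its median per cell was 249.7 CPM in 20GG79:6, against 4537 in 20GG79:1 and 6477 and 8779 on the plates of 20GG95:3. Atf3, a stress-induced transcription factor, was at 1341, 763.6 and 1377 CPM against 122.8, 19.8 and 157.8 CPM in pericyte-gated cells, and Nr4a2, a relative of Nr4a1, at 334.2, 68.4 and 493.9 CPM against 33, 0.659 and 20.4 and 45.2, 5.80 and 22.5 CPM. Zfp36, which speeds the decay of inflammatory messages, was at 2115, 962.6 and 2029 CPM against 473.9, 174.3 and 323.8 CPM. The levels varied widely from cell to cell, and Atf3 ran from 0 to 7594 CPM with a median of 657.1 over the members. Leaving this list out of the totals changed the counts of higher and lower genes from 60 and 56 to 63 and 54 against pericyte-gated cells.

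**Figure D5:**
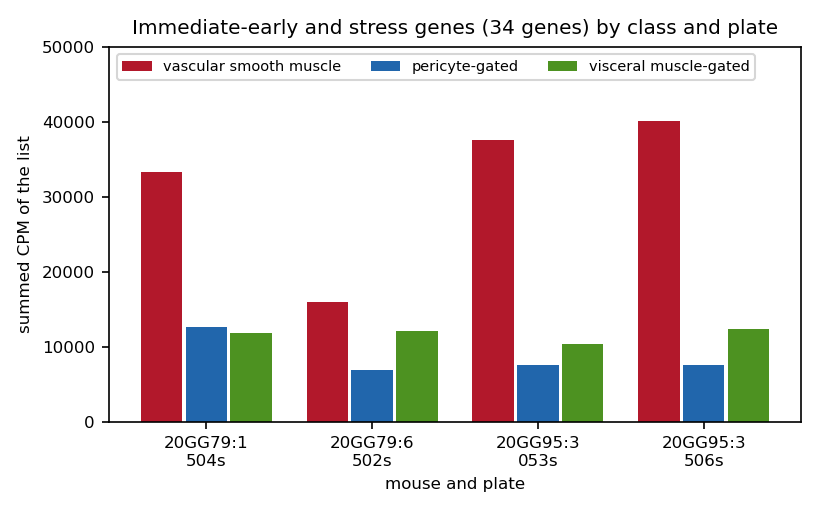
Bars are the summed CPM of the 34 immediate-early and stress genes in members, pericyte-gated and visceral muscle-gated cells of each plate. Members ran from 15907 CPM in the male 20GG79:6 to 40093 CPM on the second plate of 20GG95:3, above both other classes on every plate.

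Beyond the lists, the genes with the largest difference in their least different mouse were named. Against pericyte-gated cells these were, after P2rx1, Sorbs2, Cacna1g and Kcnab1, the genes Grip2, Asb2, Synm, Abca2, Sox6, Net1, Dusp14 and Ppm1l. Grip2, a scaffold protein with PDZ domains, was at 403.9, 289.6 and 459.9 CPM in members, 14.6, 14.2 and 2.33 CPM in pericyte-gated and 3.69, 27.5 and 14.9 CPM in visceral muscle-gated cells. Asb2, part of a ubiquitin ligase that degrades filamins, was at 462.5, 456.1 and 496.03 CPM against 6.58, 24.1 and 11.6 CPM in pericyte-gated cells, and visceral muscle-gated cells lay only slightly below the members with 435.4, 323.6 and 432.3 CPM. Net1, a guanine nucleotide exchange factor, was at 651.1, 244.1 and 429.8 CPM against 54.5, 12.5 and 24.1 CPM.

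On the lower side stood Sstr2, Dll4, Marcks, Slco2b1, Agtr1a, Cxcl14, Prex2, Gpx3, Fxyd6, Lamb1, Ms4a4d and Ifi47, of which Gpx3 was used by the rule. Sstr2, a somatostatin receptor, was at 111.9, 76.4 and 78.4 CPM in pericyte-gated cells and at 0.787, 0.250 and 0.140 CPM in members, from 5 counts in all. Slco2b1, an organic anion transporter, was at 194.1, 124.9 and 331.2 CPM against 3.94, 2.25 and 0.768 CPM in members, and Cxcl14, a chemokine, at 168.02, 254.04 and 76.9 CPM against 3.94, 4.49 and 0.279 CPM. The remaining genes of this side had 12 to 928 counts over all members.

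In the comparison with visceral muscle-gated cells the leading higher genes were Notch3, Cacna1g, Adora2b, Nrarp, Plce1, Rgs4, Ephx3, Nrip2, Heyl, S1pr3, Gja4 and Ndufa4l2. Plce1, a phospholipase C, was at 200.4, 318.3 and 223.02 CPM against 1.32, 4.14 and 5.10 CPM, and Ephx3, an epoxide hydrolase, at 284.6, 849.8 and 236.01 CPM against 3.33, 26.4 and 2.93 CPM. The leading lower genes were Kcns3, Hhip, Bdkrb2, Vwa5b2, Syt13, Zfp536, Rbp4, Nipal4, Sntg2, Apba1, Sncaip and Arhgap28. Syt13, a synaptotagmin, was at 4.33, 11 and 2.37 CPM in members and 461.7, 808.7 and 407.2 CPM in visceral muscle-gated cells, and Rbp4, the retinol-binding protein, at 7.09, 1.75 and 1.75 CPM against 530.8, 167.1 and 282.7 CPM.

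Against all other cells of the same mice, 88 genes were higher, 1.21% of 7271 kept, and 2.56% were lower. The other cells differed in makeup between the mice. The leading higher genes were Grip2, Scn4b, Xirp1, Susd5, Nrip2, Rasd1, Adamtsl1, Kcnab1, Pln, Kcna5, Tesc and Abcc8. Susd5 was at 640.1, 143.5 and 583.6 CPM in members and 2.99, 1.15 and 22.7 CPM in the other cells, and Adamtsl1, a secreted protein of the matrix, at 1160.1, 1121 and 1662 CPM against 41.9, 55.2 and 62.6 CPM. Tesc, a calcium-binding protein, was at 118.5, 215.2 and 143.3 CPM against 5.85, 1.42 and 7.71 CPM. The leading lower genes were Igsf10, Robo2, Hmcn2, Hpse, Ssc5d, Kcns3, Slco2b1, Bdkrb2, Svep1, Mmp19, Efemp1 and Tnfrsf1b. Hmcn2, a large matrix protein, was at 11.4, 14 and 2.86 CPM against 541.5, 663.9 and 700.4 CPM, and Efemp1, a fibulin, at 22, 12 and 2.30 CPM against 812.02, 566.3 and 427.4 CPM. The median difference of all kept genes was -0.31. RLE size factors moved the higher share of calls from 32.1% to 53.7% and the median difference to 0.11.

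Among themselves the members varied by plate. Of 4215 genes with a mean of at least 50 CPM over the 4 plates, 260 (6.17%) differed at least 4-fold between the summed members of the 2 plates of 20GG95:3. Between plates of different mice the number ran from 550 (13%) to 1123 (26.6%), the largest between those of 20GG79:6 and 20GG79:1, which held 14 and 10 members. The plates of few cells give less precise sums, and the part of cell number in these counts was not tested.

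Within the plates of 20GG95:3, which held 46 and 43 members, the first principal component of 500 variable genes took 5.04% and 6.45% of their variance. Its Spearman correlations across cells were 0.65 and 0.78 with detected genes, 0.33 and 0.73 with gene counts, and 0.75 and 0.22 with the rule's sum of P2rx1 and Sorbs2, so on plate 053s it ran most with the genes that chose the cells. With its sign set by Synpo2, Vtn and Ephx3 stood among the 30 lowest loadings on both plates, and Synpo2, Ccdc3, Abr and Gm26776 among the 30 highest. Synpo2 is an actin-binding protein of muscle, and Vtn is also on the list of pericyte markers. Of the genes used on both plates, 71.3% had loadings of the same sign, but the Spearman correlation of the loadings across these genes was only 0.22, so the components were alike in part.

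Vtn and the contractile list were set against each other across the cells of both plates. Of 35 genes of the list with counts on both plates, Sorbs2 left out, 29 had a negative Spearman correlation with Vtn on both plates and 1 a positive one on both, with medians of -0.29 and -0.23. Tpm2, a tropomyosin, had -0.44 and -0.48 with Vtn, and Rgs5, which is not on the list, 0.61 and 0.33. For P2rx1, 26 of the 35 were positive on both plates and 3 negative, with medians of 0.34 and 0.15. P2rx1 had 0.64 and 0.36 with Tpm2 and 0.60 and 0.46 with Lmod1, leiomodin, but 0.64 and 0.16 with Smtn, smoothelin, and 0.55 and 0.10 with Cnn1, which were weak on the second plate. Vtn with P2rx1 gave -0.51 and -0.30. P2rx1 with Ano1 gave -0.64 on plate 053s and -0.19 on the other, and Vtn with Ano1 0.41 and -0.08, so neither pair behaved alike on both. These are descriptions over 46 and 43 cells that share a plate, a mouse and differences in depth, and P2rx1 took part in the choice of the cells. No such counts over all genes stand beside them, so they are not read as particular to the contractile list.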

How the data were processed

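Single cells of mouse colon were sequenced as Smart-Seq2 libraries. The deposited values are the authors' raw read counts per gene and cell, with no molecular identifiers. The submitters' processing notes name bcl2fastq, Bowtie, Bowtie2, featureCounts and Subread, and the builds GRCm38 and mm10. Which tool did what, its version and whether strand was used is not stated.

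Cells were chosen on CPM of the deposited counts, with the 92 spike-ins left out of the totals. Counts were then summed per mouse and class, since cells of 1 mouse are not replicates, and scaled to CPM. Genes with a mean of at least 25 CPM over both classes were kept, and a pseudocount of 1 CPM was used. No test was run, because the counts that chose the members also enter every contrast, and surprising values in groups of 3 mice were not screened. The members, markers and 17 gene lists were chosen with earlier results of these data known. Named genes are the markers, the rule genes, and up to 12 genes per comparison and direction and 4 per list and direction with the largest difference in their least different mouse, leaving out ribosomal, mitochondrial and predicted genes. Acta2, Myh11, Cnn1, Cacna1c, Ednra, Gucy1a1, Jag1, Lama5, Nkx2-3 and Nr4a1 were added after their values were seen. No doublet caller was run. An alternative drops each cell in which another class has 2 or more markers at 200 CPM. Tools were Python 3.11.15, pandas 2.3.3, numpy 2.4.6 and scipy 1.17.1, with TMM factors from edgeR 4.0.16 and RLE factors from DESeq2 1.42.0 in R 4.3.3.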

Additional observations from a re-analysis of the deposited data

How the results depend on the processing

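No paired test of the called genes was run, because the counts that chose the members also enter every contrast. Every difference was taken between classes of the same mouse. Members made up 7.00% of all cells, 7.31% with a Notch3 minimum of 100 CPM, 6.75% with 400 CPM and 6.5% with a 2-fold margin between the gene pairs. The numbers of called genes are given here as multiples of those reported. Against pericyte-gated cells, a minimum of 10 CPM gave 1.62 times the higher and 2.75 times the lower genes, no minimum 2.13 and 3.71 times, a 2-fold criterion 3.18 and 3.27 times, and an 8-fold criterion 0.267 and 0.429 times. The lower genes were 1.57 times as many with the 2-fold margin and 2.02 times without cells with markers of another class. The latter setting kept only 4, 5 and 52 members of the 3 mice. It dropped the 49 members with at least 2 pericyte markers at 200 CPM or more, and Rgs5 is on that marker list. Dropping cells by pericyte markers itself lowers these genes in the members left, so the 2.02 is in part built into the setting. Against visceral muscle-gated cells, a minimum of 10 CPM gave 2.22 times the lower genes, no minimum 1.59 and 3.06 times the higher and lower, 2-fold 2.14 and 1.76 times, and 8-fold 0.497 and 0.483 times. Against all other cells, RLE factors gave 1.64 times the higher genes, a minimum of 10 CPM 2.58 times the lower and none 4.11 times, 2-fold 2.99 and 1.87 times, and 8-fold 0.341 and 0.511 times. Leaving out 1 mouse, so that 2 had to pass, gave 1.90 to 2.98 times the higher and 1.61 to 3.38 times the lower genes against pericyte-gated cells, 1.34 to 1.56 and 1.15 to 1.74 times against visceral muscle-gated cells, and 1.35 to 1.81 and 1.15 to 2.20 times against all other cells. The highest of each range came without 20GG95:3, which holds most members. Leaving immediate-early genes out of the totals was chosen after seeing the data. Of 3803 values of named genes over the alternatives, 3568 stayed within the spread between mice and 0 reversed. Nearly all of these genes were chosen for a difference of at least 4-fold in the same direction in each mouse. Reversals were therefore hardly possible, and their absence is no support for the calls. The 10 and 14 members of 20GG79:1 and 20GG79:6 limit the precision of every value.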
